A study of Mus musculus with 12 samples.

Results

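Restriction factor genes of antiviral defence, 9 in number, were followed in primary mouse aortic smooth muscle cells (SMCs): the dynamin-like GTPases Mx1 and Mx2, the radical SAM enzyme viperin (Rsad2) with its neighbour Cmpk2, tetherin (Bst2), the exonuclease Isg20, and Ifitm1, Ifitm2 and Ifitm3. The members were taken by name, and all 9 of 9 symbols were found among the 55822 genes of the count table and were among the 16140 genes that passed the filter on low counts. Medium conditioned by macrophages that had been treated with interferon gamma (IFNγ) and lipopolysaccharide (LPS) raised 8 of them above the medium of naive macrophages, from 1.67-fold for Ifitm2 to a ratio of summed counts of 35732 for Rsad2, and lowered Ifitm1 by 1.72-fold. Of the 8, Rsad2 passed the filter only through the libraries of the IFNγ/LPS macrophage medium. With the medium of naive macrophages, 6 of the 9 differed from regular growth medium, Ifitm1 lower and Ifitm3 higher among them. Of these 6, Bst2 no longer passed without the filter on low counts. At the same threshold, an adjusted p under 0.05, 71.9% of all genes tested differed in the first comparison and 34.7% in the second.

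Bulk RNA was sequenced in 12 libraries, 4 per medium, from cells the labels call primary aortic SMCs, with no strain, sex or age given. Per the labels' protocol, the SMCs were kept for 48 h in DMEM with 0.3% serum and then exposed for 24 h to conditioned medium (CM). The macrophages were grown from bone marrow. For the IFNγ/LPS group they received 20 ng/mL IFNγ overnight and 100 ng/mL LPS for 4 h, and both kinds of macrophages were washed before they conditioned DMEM with 0.3% serum and 10 ng/mL M-CSF, a macrophage growth factor, for 24 h. The third group is labelled as regular growth medium, and its serum content is not given in the labels, so an effect of naive CM and of any other difference between those media cannot be told apart. Columns of the table carry M0 and M1 in their names, which were read as the naive and the IFNγ/LPS group. The titles call the libraries biological replicates and name no animals or cultures. The p-values therefore speak only of the spread among those libraries, part of which may be technical.

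Restriction factors are cell proteins that act directly on a virus, and many of them are coded by genes that interferons induce. Mx proteins form assemblies that trap viral components, viperin makes a chain-terminating nucleotide from CTP, tetherin holds budding virus particles at the cell surface, ISG20 degrades RNA, and IFITM proteins sit in membranes and hinder the fusion of entering viruses. Many inbred mouse strains, including the one behind the reference genome, carry defective Mx1 and Mx2 alleles, so a transcript level in such cells is not a level of working protein.

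Total estimated counts ran from 28097496 to 61493375 per library. Levels are given as CPM, counts per 1000000 of the library total after TMM scaling, a scaling that sets the bulk of the genes equal between libraries. Smooth muscle markers (10 of 10 measured) summed to 401 to 494 CPM in regular medium, to 379 to 403 with naive CM and to 145 to 149 with IFNγ/LPS CM. Acta2 made up most of the sum in regular medium, at 280 CPM. There 4 of the 10 (Myh11, Cnn1, Des and Mylk) had a mean under 1 CPM, as did 4 with naive CM and 6 with IFNγ/LPS CM. In IFNγ/LPS CM against naive CM, 7 of the 10 were lower and 1 higher. The sum of 15 macrophage markers was 0.992 to 1.08 CPM, 1.32 to 1.48 CPM and 9.65 to 12.7 CPM in the same order. Fcgr1 and C1qa had no count in any library, 3 of the 15 markers (Cd68, Csf1r and Lyz2) passed the filter and all 3 were higher in IFNγ/LPS CM. Csf1r and Lyz2 were at 0.203 and 0.0785 CPM with naive CM, beside 4.62 and 0.472 in IFNγ/LPS CM. They passed the filter mainly through the group where they are high, so their direction was largely set by the filter. The 9 endothelial markers summed to at most 3.55 CPM. The 8 adventitial fibroblast markers summed to 2019 to 2318, 2062 to 2236 and 6832 to 7509 CPM, with Dcn and Ly6a making up most of the sum. Of these 8, 3 were higher, 4 lower and 1 did not pass in IFNγ/LPS CM against naive CM, where 71.9% of all genes passed. The part of these marker changes in the results below was not tested, and in bulk RNA fewer cells of a type and less RNA per cell cannot be told apart.

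Against naive CM, IFNγ/LPS CM raised 8 members and lowered 1 at an adjusted p under 0.05 in edgeR's quasi-likelihood test, and in all 9 the 4 libraries of one medium lay clear of the 4 of the other. Rsad2, among the raised, entered the test only through the IFNγ/LPS libraries, so its direction was set by the filter. The background is wide, since 71.9% of all genes tested passed in this comparison, 36.1% as higher and 35.8% as lower. For the lack of overlap no such share was counted, in this comparison or those below, so it only describes the members. The median log2 fold change of the 9 was 5.41, and that of all genes was 0.004. By fold change Rsad2 ranked 13th from the top of 16140 genes, Cmpk2 61st, Mx1 106th, Mx2 192nd, Bst2 321st, Ifitm3 668th, Isg20 702nd and Ifitm2 2990th, while Ifitm1 ranked 3116th from the bottom. Against regular medium, 8 were again higher and 1 lower in IFNγ/LPS CM, with no overlap in any of the 9. The median log2 fold change there was 5.00 beside -0.026 over all genes, and 71.8% of genes passed (35.4% higher and 36.4% lower). These comparisons share the IFNγ/LPS libraries and are not independent. Scaled to library totals in place of TMM, the split of all calls went from 5830 higher and 5781 lower to 3279 and 9371 against naive CM, and all 9 members kept their calls.

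Naive CM against regular medium was a smaller contrast, in which 34.7% of all genes passed (18.3% higher and 16.4% lower). Mx1, Isg20, Ifitm2 and Ifitm3 were higher, Bst2 and Ifitm1 were lower, and Mx2, Rsad2 and Cmpk2 did not pass. The libraries of the 2 media did not overlap in the 6 members that passed and overlapped in the other 3, with no share counted over all genes. The median log2 fold change of the 9 was 0.23, beside -0.017 over all genes.

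**Figure D1:**
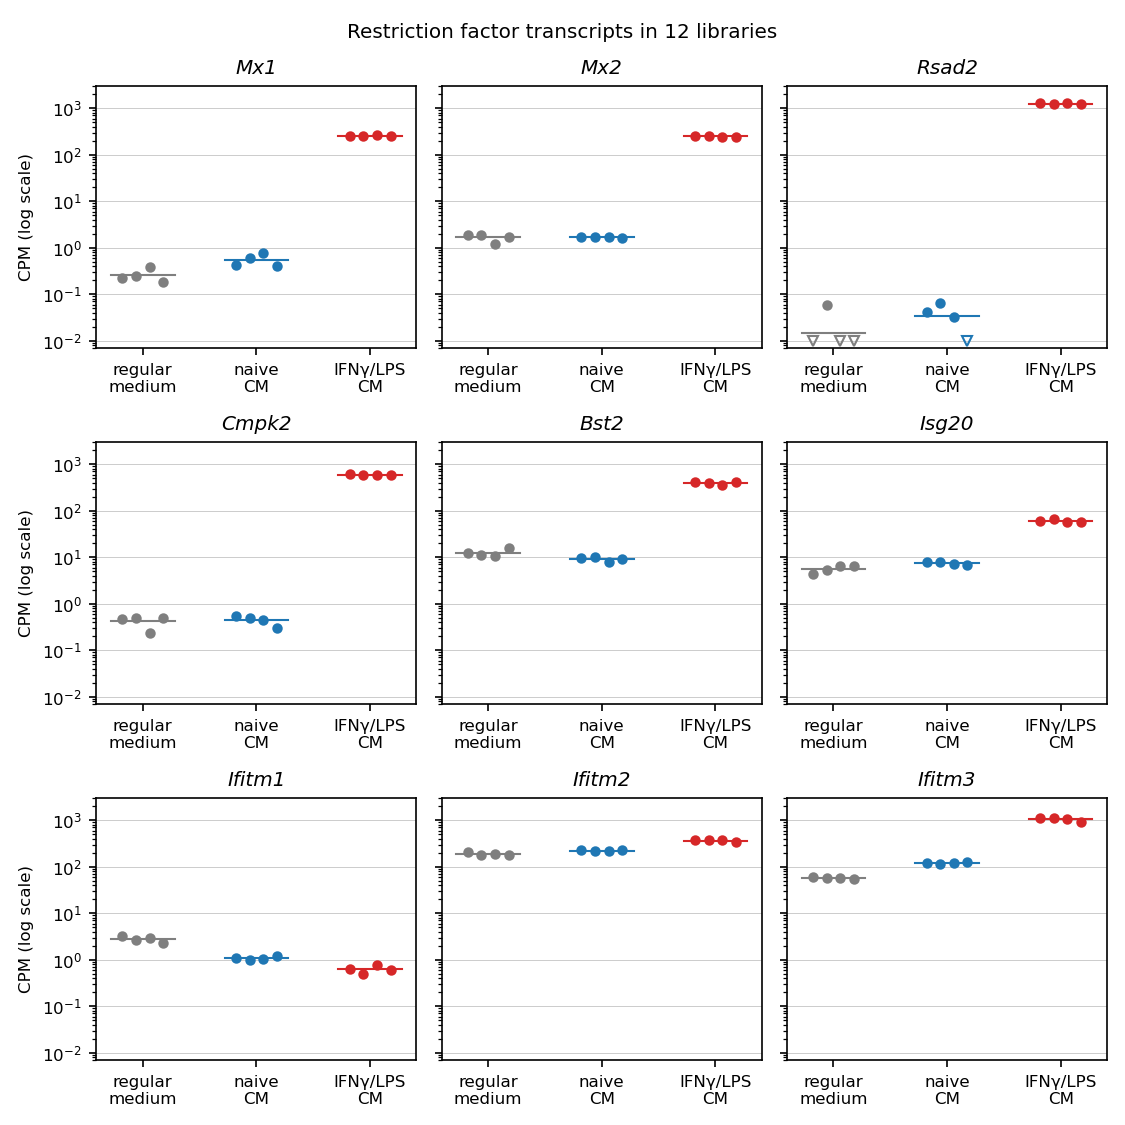
Level of each member in the 12 libraries, in CPM on a log axis, by medium; points are libraries in the order of their replicate number, bars are the mean of 4, and open triangles at the lower edge stand for libraries with no count. Rsad2 rises from a mean of 0.0346 CPM in naive CM to 1250 CPM, whereas Ifitm1 falls from 2.80 CPM in regular medium to 0.626 CPM in IFNγ/LPS CM.

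Promoter sequence was available for 7 members in RefSeq's table (build GRCm38, windows of 250 bases before to 50 after a gene start, 9 windows in all) and was searched on both strands for 3 motifs. The core of the interferon-stimulated response element (ISRE, bound by IRF proteins) was taken as GAAA, any 2 bases, GAAA. The gamma-activated site (GAS) was taken as TTC, any 3 bases, GAA, and the κB site as GGGA, any base, TTTCC. The ISRE core occurred in the windows of Rsad2, Bst2, Ifitm2 and Ifitm3, and 3.44% of all 32851 promoter windows held it. Matches from members with very different responses are printed below, read 5′ to 3′ along the gene's own strand with the match in capitals, because the same core stood beside a 1.67-fold and an 8.83-fold change.
Rsad2 (chr12:26456553-26456582, minus strand): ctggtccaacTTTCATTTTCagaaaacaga
Bst2 (chr8:71537583-71537612, minus strand): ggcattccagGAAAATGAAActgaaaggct
Ifitm2 (chr7:140955988-140956017, minus strand): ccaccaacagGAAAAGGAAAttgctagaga
Ifitm3 (chr7:141010723-141010752, minus strand): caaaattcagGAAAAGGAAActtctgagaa
Isg20 (chr7:78913341-78913370, plus strand, GAS): ctggggagggTTCTTGGAAtttttcctttt

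With the RefSeq start as position 0, the match began at -120 in Rsad2, where it lies on the opposite strand to the gene, at -130 in Bst2, at -46 in Ifitm2 and at 2 in Ifitm3. Ifitm2 and Ifitm3 carried the same letters in the match, before the start in one and just after it in the other. Bst2 held a second core at -124 that overlaps the first, and Ifitm3 held a second at 19. The GAS letters, present in 8.3% of all windows, occurred in Bst2 at -136, in the first of 3 Isg20 windows at -73 and in Ifitm3 at 13. They overlap an ISRE core in Bst2 and in Ifitm3. The windows of Cmpk2 and Ifitm1 held none of the 3 motifs. The RefSeq start behind the Ifitm1 window lies 855 bp inside the gene as GENCODE draws it, so this window does not cover the GENCODE start at 140967221, and the other 2 Isg20 windows begin from starts 341 and 811 bp inside that gene. The log2 fold changes of Cmpk2 and Ifitm1 in IFNγ/LPS CM against naive CM were 10.37 and -0.78. No member's window held the κB letters, found in 0.411% of all windows. A match is a run of letters and not a measured binding site, and these windows leave out any element farther away.

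Mx1 and Mx2 lie near each other on chromosome 16 (GRCm38), Mx1 at 97447035 to 97462907 on the minus strand and Mx2 at 97535308 to 97560900 on the plus strand, with 72401 bp and the gene Fam3b between them. GENCODE calls Mx1 protein-coding and Mx2 a polymorphic pseudogene, and RefSeq calls both transcribed pseudogenes. Mx1 stood at 0.223, 0.251, 0.395 and 0.186 CPM in the 4 regular medium libraries, at 0.416, 0.615, 0.77 and 0.407 with naive CM, and at 258, 250, 272 and 249 in IFNγ/LPS CM. The naive and regular values were separated by a narrow margin, 0.407 against 0.395, and each rested on few reads, 106 and 51 counts over 4 libraries. Mx1 was higher with naive CM than in regular medium by 1.08 ± 0.23 in log2 (SE, adjusted p = 0.00121). The ratio of summed counts was 2.13, with an exact 95% interval of 1.51 to 3.03 that covers counting error only, not the spread between libraries. IFNγ/LPS CM raised it 482-fold above naive CM (log2 fold change 8.91, adjusted p = 6.71e-23), with a counting interval of 402 to 594.

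Mx2, the cytoplasmic member of the pair (mouse Mx1 protein is nuclear), read 1.89, 1.86, 1.22 and 1.71 CPM in regular medium, 1.73, 1.68, 1.70 and 1.63 with naive CM, and 257, 253, 242 and 242 in IFNγ/LPS CM. Regular medium and naive CM overlapped, with a log2 difference of -0.04 ± 0.0999 (SE, adjusted p = 0.803). IFNγ/LPS CM was 148-fold above naive CM (log2 7.21 ± 0.0714, adjusted p = 1.15e-23).

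Per kilobase of exon, Mx1 was 13.6% ± 6.7 (SD, n = 4) of the summed Mx level in regular medium, 23.5% ± 5.5 with naive CM and 49.7% ± 1.4 in IFNγ/LPS CM. Mx2 was thus the more abundant transcript in both other media. In IFNγ/LPS CM the 2 overlapped by this length, at 65.9 to 71.8 CPM/kb for Mx1 and 67 to 71.1 for Mx2. By the length of the longest transcript they did not, with the highest Mx1 library at 80.3 and the lowest Mx2 library at 97.8 CPM/kb. The ratio of Mx1 to Mx2 counts rose 3.23-fold from naive to IFNγ/LPS CM (exact two-sided permutation test over libraries, p = 0.0286, adjusted p = 0.0286 over 10 ratios). That p is the smallest that 4 libraries against 4 can give. The ratio was not tested against regular medium because Mx1 fell under 10 counts in a library there. Of the 31-base words in Mx1 and Mx2 transcripts, 8.12% and 7.96% also occur in transcripts of other genes, which include the other Mx gene, so a small part of the reads could be split between them.

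Rsad2 codes for viperin and Cmpk2 for a mitochondrial nucleotide kinase on the path to CTP. They lie head to head on chromosome 12, Rsad2 at 26442746 to 26456452 on the minus strand and Cmpk2 at 26469204 to 26479837 on the plus strand, with 12752 bp between their starts. Rsad2 had 0, 4, 0 and 0 counts in the regular medium libraries and 2, 4, 1 and 0 in naive CM. In IFNγ/LPS CM it had 47145, 42212, 45998 and 41809 counts, or 1268, 1222, 1275 and 1233 CPM. It went from the lowest member of the 9 in both other media to the highest in CPM, and no library lay in between. The ratio of summed counts was 35732 against naive CM (exact 95% interval 17342 to 88876) and 64005 against regular medium (24998 to 234912). These intervals cover counting error only. The fitted log2 fold changes of 15.02 and 15.78 (adjusted p = 8.48e-21 and 7.53e-21) rest on 7 and 4 counts in the lower group. Rsad2 passed the filter on low counts only through the IFNγ/LPS libraries, so these p-values are no independent support for its direction. Between naive CM and regular medium the log2 difference was 0.76 ± 0.875 (SE, adjusted p = 0.544). It rested on 1 library, since without regular medium replicate 2, which held all 4 counts of that group, it was 3.72 with an adjusted p of 0.0265.

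Cmpk2 read 0.481, 0.487, 0.231 and 0.496 CPM in regular medium, 0.541, 0.485, 0.449 and 0.305 with naive CM, and 602, 583, 579 and 575 in IFNγ/LPS CM. Unlike Rsad2 it had counts in every library, 7 to 33 in the 8 libraries of the 2 other media. IFNγ/LPS CM raised it 1320-fold above naive CM (log2 10.37, adjusted p = 2.82e-24), and the counting interval of the ratio was 1079 to 1659. Naive CM and regular medium overlapped, at a ratio of 0.979 with an interval of 0.723 to 1.33 (adjusted p = 0.94). Rsad2 and Cmpk2 could not be compared as a ratio because Rsad2 was under 10 counts in each of those libraries. In IFNγ/LPS CM, per kilobase, Rsad2 was 288 CPM/kb ± 6.03 (SD, n = 4) and Cmpk2 140 CPM/kb ± 2.91.

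**Figure D2:**
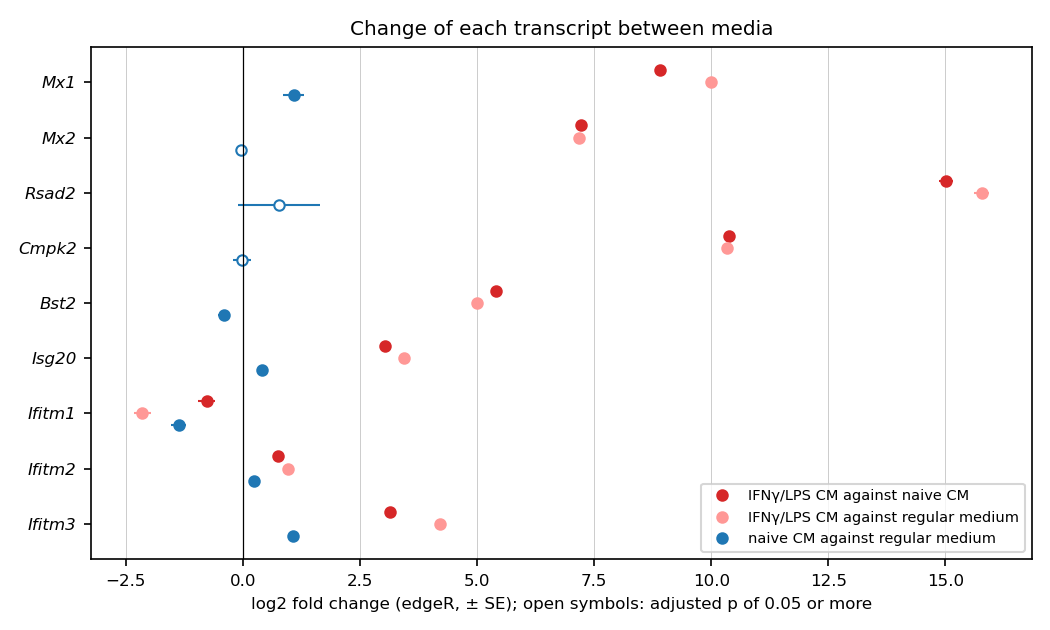
Log2 fold change of each member with its SE in 3 comparisons, from edgeR on 12 libraries; filled symbols passed an adjusted p of 0.05 and open symbols did not. Ifitm1 is the one member left of 0 in each comparison, and the 3 open symbols belong to Mx2, Rsad2 and Cmpk2 in naive CM against regular medium.

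Bst2 (chromosome 8, 71534255 to 71537456, minus strand) codes for tetherin. It read 12.3, 11.1, 10.5 and 15.5 CPM in regular medium, 9.46, 10.4, 7.99 and 9.29 with naive CM, and 412, 404, 364 and 412 in IFNγ/LPS CM. IFNγ/LPS CM raised Bst2 42.5-fold above naive CM (log2 5.41 ± 0.116, adjusted p = 2.76e-13). Naive CM was 1.32-fold below regular medium (log2 -0.41 ± 0.115, adjusted p = 0.0171), and the nearest libraries, 10.4 and 10.5 CPM, almost touched. Without a filter on low counts this difference was -0.4 with an adjusted p of 0.0611 and no longer passed.

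Isg20 (chromosome 7, 78913424 to 78920396, plus strand) codes for a 3′ to 5′ exonuclease that prefers RNA. It read 4.47, 5.34, 6.46 and 6.55 CPM in regular medium, 7.71, 7.98, 7.09 and 6.95 with naive CM, and 61.4, 66.7, 58.0 and 56.7 in IFNγ/LPS CM. Naive CM exceeded regular medium by 1.32-fold (log2 0.40 ± 0.104, adjusted p = 0.00683), the same size as the fall of Bst2. IFNγ/LPS CM exceeded naive CM 8.15-fold (log2 3.03 ± 0.0986, adjusted p = 4.06e-14). Aside from the IFITM genes, Isg20 had the smallest rise among the members in that comparison.

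The 3 IFITM genes lie together on chromosome 7, Ifitm2 at 140954837 to 140955987 (minus strand), Ifitm1 at 140967221 to 140969825 (plus strand) and Ifitm3 at 141009586 to 141010770 (minus strand). Ifitm2 and Ifitm1 start 11234 bp apart in opposite directions. Despite this common neighbourhood they moved apart: in each of the 3 comparisons Ifitm1 was lower, Ifitm2 was higher and Ifitm3 was higher by more than Ifitm2.

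Ifitm1, which acts at the cell surface, read 3.26, 2.70, 2.93 and 2.29 CPM in regular medium, 1.08, 0.971, 1.06 and 1.20 with naive CM, and 0.646, 0.492, 0.776 and 0.59 in IFNγ/LPS CM. All 3 groups were separate, and the level was low throughout, with 573 counts over the 4 regular medium libraries and 89 over the 4 IFNγ/LPS libraries. Ifitm1 was 2.59-fold lower with naive CM than in regular medium (log2 -1.37 ± 0.161, adjusted p = 2.28e-06), 98th from the bottom of 16140 genes. IFNγ/LPS CM lowered it 1.72-fold against naive CM (log2 -0.78 ± 0.188, adjusted p = 0.00106), at a ratio of counts of 0.582 with a counting interval of 0.449 to 0.748. Against regular medium the fall was 4.44-fold (log2 -2.15 ± 0.178, adjusted p = 1.87e-09).

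Ifitm2, an endosomal member, read 203, 180, 184 and 179 CPM in regular medium, 223.6, 214.1, 213.8 and 225.3 with naive CM, and 377, 368, 381 and 337 in IFNγ/LPS CM. Naive CM was 1.17-fold above regular medium (log2 0.23 ± 0.0472, adjusted p = 0.000785) and IFNγ/LPS CM 1.67-fold above naive CM (log2 0.74 ± 0.0473, adjusted p = 3.63e-11). It was the most abundant member per kilobase in regular medium and with naive CM, and it rose the least of the 8 members that rose with IFNγ/LPS CM.

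Ifitm3, the endosomal member best known for blocking influenza virus entry, read 58.9, 56.1, 57.8 and 54.9 CPM in regular medium, 119, 116, 118 and 124 with naive CM, and 1113, 1103, 1066 and 925 in IFNγ/LPS CM. Replicate 4 was the lowest of the IFNγ/LPS libraries, and still several times above every library of the other media. Ifitm3 was 2.09-fold higher with naive CM than in regular medium (log2 1.07 ± 0.0525, adjusted p = 2.57e-11), the smallest adjusted p of the 9 members in that comparison. In IFNγ/LPS CM it was 8.83-fold above naive CM (log2 3.14 ± 0.0548, adjusted p = 4.12e-20) and 18.5-fold above regular medium.

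The composition of the IFITM transcripts turned over. Per kilobase, Ifitm2 made up 76.7% ± 0.57 (SD, n = 4) of the summed level in regular medium, 65.4% ± 0.37 with naive CM and 26.5% ± 0.86 in IFNγ/LPS CM. Ifitm3 made up 22.6% ± 0.64, 34.4% ± 0.37 and 73.5% ± 0.81, and Ifitm1 0.686% ± 0.07, 0.193% ± 0.013 and 0.0272% ± 0.0052. The sum itself grew from 371 CPM/kb ± 19.9 over 511 ± 14.2 to 2110 ± 156. Within a library, where scaling plays no part, the ratio of Ifitm2 to Ifitm3 counts fell 1.78-fold from regular medium to naive CM and 5.28-fold from naive to IFNγ/LPS CM. Ifitm1 to Ifitm3 fell 5.37-fold and 15.1-fold in the same steps, and Ifitm1 to Ifitm2 fell 3.01-fold and 2.86-fold. Each of these ratios, and each ratio against regular medium, had an exact two-sided permutation p of 0.0286 and an adjusted p of 0.0286, the smallest the design allows.

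**Figure D3:**
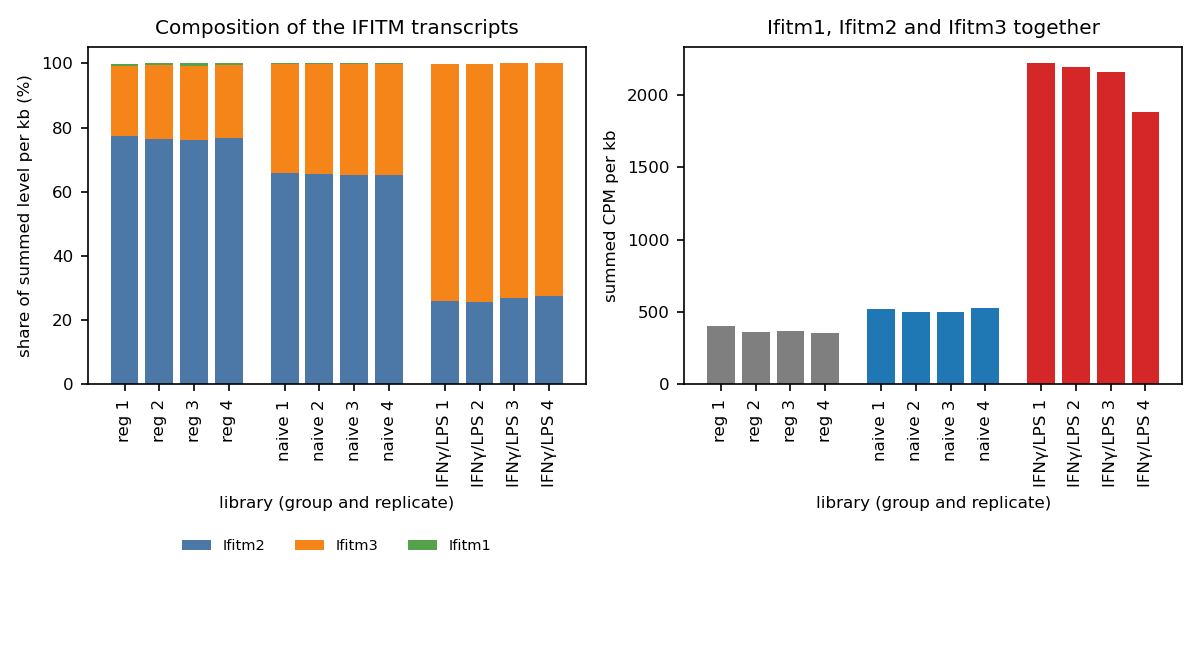
Left, share of Ifitm1, Ifitm2 and Ifitm3 in their summed level per kb of exon in each library (%); right, that sum in CPM per kb, with bars from 0. Ifitm3 holds 72.6 to 74.3% in the IFNγ/LPS libraries and 21.7 to 23.1% in the regular medium libraries, and Ifitm1 is a thin band at the top or too small to see.

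These genes are near copies of each other, and how the deposited estimates split their common reads cannot be seen in the counts. In GENCODE M21, 55.5% of the 31-base words of Ifitm2 transcripts occur in transcripts of other genes, beside 20.5% for Ifitm3 and 11.6% for Ifitm1, so IFITM values are uncertain to the degree that reads were shared. Gm45717, which overlaps Ifitm2, held 2, 10 and 13 counts over the regular, naive and IFNγ/LPS libraries. For Cmpk2 and Bst2 no such word was shared, and for Rsad2 and Isg20 the share was 0.531% and 0.48%.

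Levels of different genes were ordered per kilobase of merged exons. In regular medium the order was Ifitm2 (285 CPM/kb), Ifitm3 (84), Bst2 (13.7), Isg20 (3.07), Ifitm1 (2.56), Mx2 (0.462), Cmpk2 (0.102), Mx1 (0.0697) and Rsad2 (0.0034). Isg20 and Ifitm1 overlapped between libraries, as did Cmpk2 and Mx1, and the other neighbours in the order did not. In naive CM the first 6 places were the same, followed by Mx1 (0.146) and Cmpk2 (0.107), which overlapped, and Rsad2. With IFNγ/LPS CM the order became Ifitm3 (1551), Ifitm2 (558), Bst2 (441), Rsad2 (288), Cmpk2 (140), Mx2 (68.8), Mx1 (68), Isg20 (32.6) and Ifitm1 (0.572), with overlap between the 2 Mx genes only, which is lost with the longest transcript as length. Bst2 kept the third place in all 3 media while Rsad2 moved from the ninth to the fourth. The spread between replicates was widest where counts were few. The coefficient of variation was 2.07 to 8.27% for the 8 raised members in IFNγ/LPS CM and 18.9% for Ifitm1, beside 30.4% for Cmpk2 and 34.7% for Mx1 in regular medium.

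**Figure D4:**
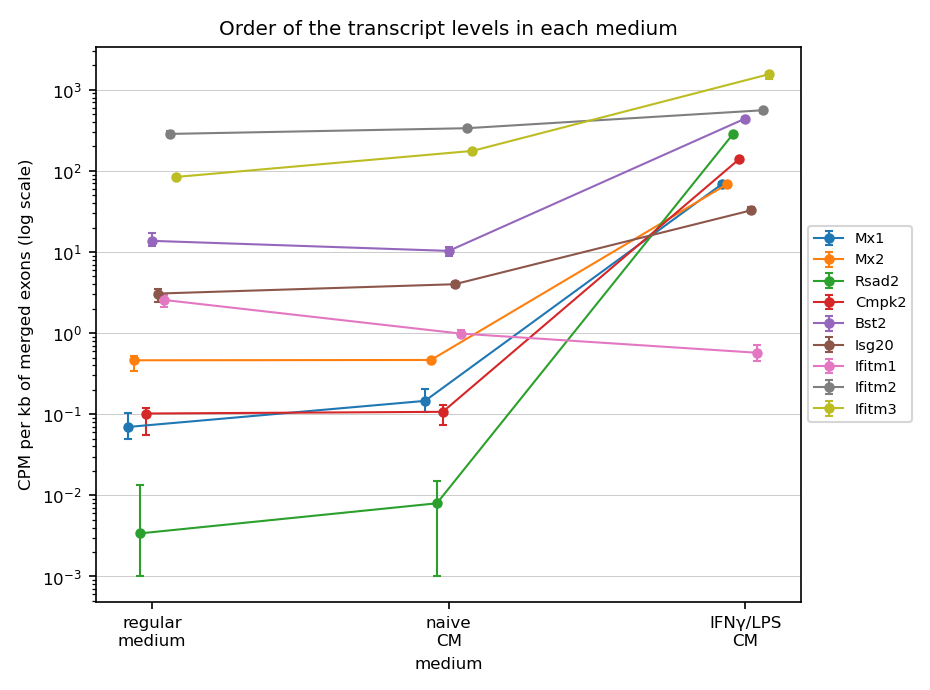
Mean CPM per kb of merged exons for each member (log axis) in the 3 media; bars run from the lowest to the highest library, and a lowest library of 0 (Rsad2) is drawn at the foot of its bar. The lines of Ifitm2 and Ifitm3 cross between naive and IFNγ/LPS CM, and Rsad2 climbs from the last to the fourth place.

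Interferon ligand, receptor and signalling genes were next described from lists. Of 10 interferon ligand genes none passed the filter on low counts. Ifnb1 had 5 counts in the IFNγ/LPS libraries and none elsewhere, Ifne had 3 in regular medium and 1 in IFNγ/LPS CM, and the other 8, Ifng among them, had no count in any library. Of 20 type I, II and III interferon genes found by symbol in the table, the only other one with counts was Ifnz, which is outside the list and was added after its values were seen. Ifnz had 7 to 51 counts in the regular medium libraries, 3 to 21 with naive CM and 17 to 35 with IFNγ/LPS CM, and these ranges overlap. Its fitted log2 difference was 1.47 ± 0.399 (SE, adjusted p = 0.00281) between IFNγ/LPS and naive CM and 0.67 ± 0.371 (adjusted p = 0.113) between IFNγ/LPS CM and regular medium. A count of 0 limits the RNA of these SMCs and says nothing of proteins in the medium. Of 15 receptor and signalling genes, 14 were higher in IFNγ/LPS CM than in naive CM, where 71.9% of all genes passed, 36.1% as higher. The median log2 fold change of the 15 was 2.52. The largest changes were in Usp18 (8.94, from 0.939 to 475 CPM), which removes ISG15 and restrains the type I receptor, Irf7 (7.83, from 2.99 to 679 CPM), an interferon-inducible transcription factor, and Socs1 (7.24, from 0.593 to 90.7 CPM), a feedback inhibitor of JAK kinases. Irf3, which is present in most cells before infection, was at 25.8 and 25.1 CPM and did not pass (log2 0.04, adjusted p = 0.589). In naive CM against regular medium, where 34.7% of all genes passed, 6 of the 15 were higher, 2 lower and 7 did not pass.

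Of 20 other restriction factor genes, 19 were higher and 1 lower in IFNγ/LPS CM than in naive CM, where 71.9% of all genes passed. Their median log2 fold change was 3.00, beside 5.41 for the 9 members and 0.004 for all genes. In naive CM against regular medium, where 34.7% of all genes passed, 6 were higher, 4 lower and 10 did not pass. Ch25h, which makes 25-hydroxycholesterol, rose by 8.24 in log2 (0.475 to 150 CPM), the helicase Ddx60 by 8.14 (0.54 to 156 CPM) and the dNTP hydrolase Samhd1 by 5.37 (42.9 to 1771 CPM). Serinc5, a membrane protein that lowers the infectivity of retroviruses, was the one that fell (log2 -1.54, from 180 to 61.9 CPM).

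Among structural relatives of the members, most of them with housekeeping roles, 14 of 17 genes were measured, and 7 were higher, 3 lower and 4 not past the test in IFNγ/LPS CM against naive CM, with a median log2 fold change of 0.16. The 10 that passed are a share near the 71.9% of all genes. Ifitm6 rose by 3.73 (0.0831 to 1.05 CPM), on 15 and 148 counts, and Dnm3 and Dnm1, dynamins of vesicle fission and so distant relatives of the Mx proteins, rose by 2.04 and 1.46. The nucleotide kinases Dtymk and Cmpk1 fell (log2 -1.19 and -0.47), in contrast to Cmpk2, and so did the mitochondrial fusion GTPase Mfn2 (-0.29). In naive CM against regular medium, where 34.7% of all genes passed, 3 were higher, 1 lower and 10 did not pass.

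Of 10 genes whose products work with viperin or act on IFITM proteins, 5 were higher, 3 lower and 2 did not pass in IFNγ/LPS CM against naive CM. Their median log2 fold change was 0.12, and 71.9% of all genes passed in this comparison. Zdhhc20, a palmitoyltransferase of IFITM3, fell by 1.02 in log2 (283 to 139 CPM), and Nedd4, a ubiquitin ligase that marks IFITM3 for breakdown, fell by 0.83 (2994 to 1681 CPM). Vcp, an ATPase that acts on ubiquitin-marked proteins, fell by 0.23. Ctps2, an enzyme that makes CTP, the substrate of viperin, rose by 0.79 (67.0 to 116 CPM). In naive CM against regular medium, where 34.7% of all genes passed, 3 were higher, none of the 10 was lower and 7 did not pass.

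**Figure D5:**
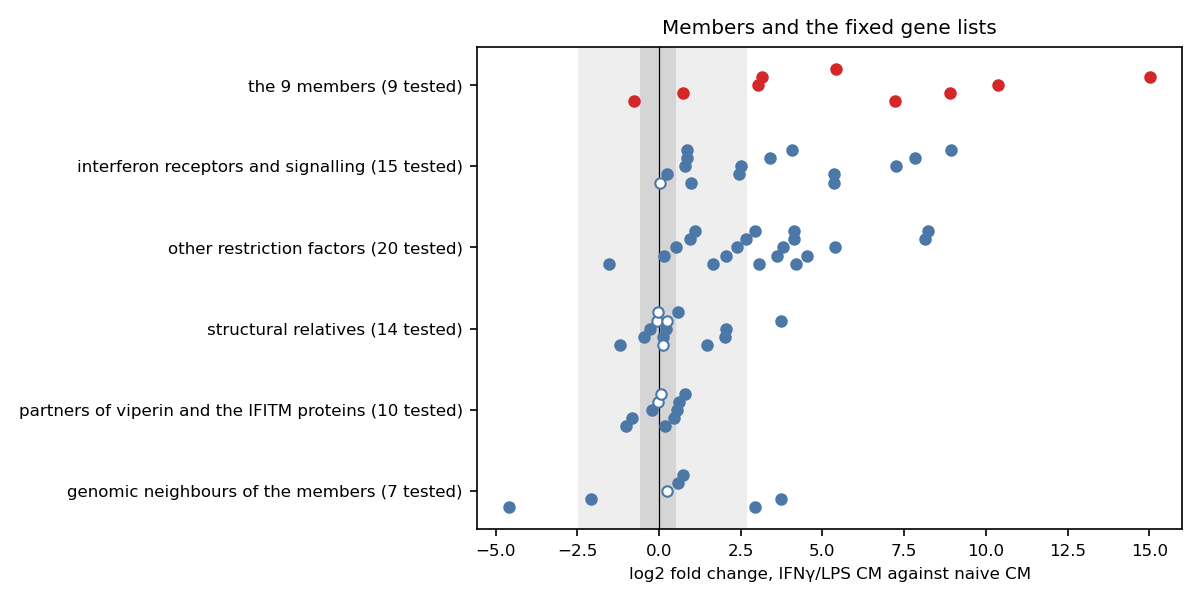
Log2 fold change between IFNγ/LPS CM and naive CM for the 9 members, 4 gene lists and the genes next to the members; filled symbols passed an adjusted p of 0.05, the darker band spans the middle 50% of all genes (-0.54 to 0.48) and the lighter band the middle 90% (-2.45 to 2.67). Most members and many of the other restriction factors lie beyond the bands to the right, and the structural relatives and partners lie mostly inside them. The members Ifitm1 and Ifitm2 lie within the middle 90%, as do several other restriction factors, such as Adar (2.66), Plscr1 (1.09) and March8 (0.52).

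Of the genes next to the members, 7 were tested between IFNγ/LPS CM and naive CM, where 71.9% of all genes passed. Among these 7, 4 were higher, 2 lower and 1 did not pass. On either side of the Mx pair, Bace2 (4099 bp away) was lower in IFNγ/LPS CM than in naive CM, at 26.0 against 110 CPM (log2 -2.08 ± 0.0436, adjusted p = 7.5e-19). Tmprss2, a surface protease 3782 bp away on the other side, was lower too, at 0.905 against 21.7 CPM (log2 -4.58 ± 0.106, adjusted p = 3.11e-18). Fam3b, between Mx1 and Mx2, had 29 and 4 counts and was not tested. Rnf144a, 27492 bp from Rsad2, had 57 counts in IFNγ/LPS CM and 10 with naive CM and was higher (log2 2.95 ± 0.452, adjusted p = 9.05e-06). Mvb12a beside Bst2 and Aen beside Isg20 were higher by 0.74 and 0.57 in log2, beside 5.41 and 3.03 for their neighbours. At the IFITM cluster Ifitm5 did not pass (log2 0.23 ± 0.382, adjusted p = 0.609), and Ifitm6 at the other end was higher, as given above. Sox11, Ccdc194 and Acan, the remaining neighbours, were under the filter.

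For each member the 3 protein-coding genes with the nearest pattern over the 12 libraries were taken from 13166 genes, by the root mean square difference of centred log2 CPM. This is a description that rests mainly on the size of the steps between media. Mx1 lay nearest to Slpi, Slfn2 and Usp18 (0.298 to 0.425) and Mx2 to Gbp7, Socs1 and Cybb (0.107 to 0.143). Rsad2 lay nearest to the chemokine genes Ccl5 and Cxcl9 and to Gm4951, all 3 almost without counts outside IFNγ/LPS CM (0.455 to 0.515), and Cmpk2 to Sprr2e, Gbp6 and Batf2 (0.298 to 0.347). Sprr2e and Batf2 had no counts with naive CM, and their fitted rises of 14.4 and 14.13 in log2 exceed the 10.37 of Cmpk2. The prior count of 2, added before the logarithm, flattens values this low, also for the genes nearest to Rsad2. Bst2 was nearest to Plpp3, Samhd1 and Ifit3 (0.162 to 0.214), and Isg20 to Pfkl, Trps1 and Pim2 (0.128 to 0.159). The nearest patterns to Ifitm2 were those of Tspan31, Tcf25 and P4ha1 (0.0449 to 0.0544), genes with fold changes of that small size, and to Ifitm3 those of Mthfd1l, Gfra1 and Pgk1 (0.154 to 0.193). Ifitm1 had Slc24a3, Parm1 and Xkr4 nearest (0.164 to 0.253), each of which fell in both steps, by 1.09 to 1.47 in log2 from regular medium to naive CM.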

How the data were processed

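RNA of mouse aortic SMCs was measured in 12 stranded, polyadenylated-RNA libraries with paired 150 bp reads, per the labels' protocols. The authors deposited estimated counts per gene as whole numbers, made with Salmon 1.10.1 on mm10 per the submitters' processing notes; the sources used here do not state the annotation release or how transcripts were summed. Of 55822 identifiers, 51344 (92%) matched a GENCODE M21 symbol. Columns were matched to groups by name (M1 was taken as IFNγ/LPS and M0 as naive).

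In R 4.3.3, edgeR 4.0.16 was run on all 12 libraries in 1 model (filterByExpr, TMM, robust quasi-likelihood F-test, two-sided, 9 residual degrees of freedom), with Benjamini-Hochberg adjustment over 16140 genes and a threshold of 0.05. An approximate SE was taken as the log2 fold change divided by the root of F. Exact 95% intervals of ratios cover counting error only. Ratios between related members used a pseudocount of 0.5 counts, at least 10 counts in each library, and an exact permutation test. The edgeR step was checked on simulated data in which few genes changed, evenly up and down. That check does not cover changes in most genes, or changes as large as those of the members. TMM factors were 0.834 to 0.842 in IFNγ/LPS CM and 1.08 to 1.11 elsewhere.

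All 9 members are named whatever their result. From each list the text names the 3 passing genes with the largest change at 1 CPM or more and any that moved against the rest; genes with the nearest pattern (prior count 2) and the nearest coding gene on each side are also named. Irf3, the markers and the overlapping genes Gm45717 and Fam3b were named after their values were seen. Members and lists were chosen with earlier results of these data known, so no list is independent evidence of a direction.

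Libraries of the same replicate number were not treated as paired: the correlations of their deviations from the group means were -0.0637 to 0.0679 over 12 pairs, under the threshold of 0.1. Alternatives were other scalings, filters and tools (DESeq2 1.42.0, limma 3.58.1), only the 2 groups compared, the replicate block, and leaving out libraries. Protein sequences were not used here.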

Additional observations from a re-analysis of the deposited data

Results flagged for a closer look

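In 2 of the 27 sets of 4 libraries (9 genes in 3 media), 1 library stood far from the other 3 by Dixon's criterion at 95%, which chance alone meets in about 1 in 20 groups. Rsad2 in regular medium replicate 2 was 0.059 CPM, from 4 counts, while the other 3 libraries of that medium had none. Cmpk2 in regular medium replicate 3 was 0.231 CPM, from 7 counts, and the other 3 libraries lay between 0.481 and 0.496 CPM. That library has the smallest total of the 12.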

How the results depend on the processing

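No called change of a member reversed under any alternative run, and 564 of 566 alternative values of the members' fold changes kept their side of the threshold. Between naive CM and regular medium, Mx2 and Cmpk2 did not pass and took either sign across runs (log2 -0.12 to 0.01 and -0.15 to 0.15). Without a filter on low counts, 1 member in place of 2 was lower in naive CM than in regular medium, since Bst2 no longer passed (log2 -0.4, adjusted p = 0.0611). Without regular medium replicate 2, Rsad2 passed in that comparison (3.72, adjusted p = 0.0265). Scaling to library totals moved the median of all genes by -0.38 in IFNγ/LPS CM against naive CM. Against regular medium the split of all calls went from 5712 and 5882 to 3279 and 9597. The members shifted with the median, Ifitm2 to 0.35 and Ifitm1 to -1.17, and their calls stayed at 8 higher and 1 lower. With the replicate block 9, 6 and 9 members passed in the 3 comparisons, as without it, and no member's call changed. Without the 2 libraries of lowest total (naive CM and regular medium replicate 3), an alternative added after the data were seen, these counts were also 9, 6 and 9. With the longest transcript as length, 15 of 27 levels per kb moved by more than 1 SD and the order stayed the same, but the overlap of Mx1 and Mx2 in IFNγ/LPS CM was lost (at most 80.3 against at least 97.8 CPM/kb). Depth limits Rsad2 (7 and 4 counts), Mx1 and Cmpk2 outside IFNγ/LPS CM, and Ifitm1 within it.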
